A study of Mus musculus with 9 samples.

Results

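The genes described here are 40 mouse genes of the antioxidant, glutathione and iron programme that the transcription factor NRF2 (gene symbol Nfe2l2) is known for, and some of its regulators. They were taken by gene symbol from a table of 15343 genes measured by RNA sequencing in 9 libraries, and all 40 were present. The choice was by symbol, with earlier results of these data known. All libraries came from primary intraperitoneal macrophages of mice titled WT, with the strain written as CF7B1/6, and every culture received the bacterial lipopolysaccharide LPS at 100 ng/ml for 6 h. The 3 LPS libraries have no pretreatment in their labels. The 3 DHA libraries were pretreated for 1 h with the omega-3 fatty acid docosahexaenoic acid at 100 µM, and the 3 cpdA libraries for 1 h with 10 µM of cpdA, labelled as a small-molecule agonist of the fatty acid receptor Gpr120. Because every group received LPS and none was left unstimulated, the comparisons concern what a pretreatment added to LPS. The labels do not say that the 3 libraries of a group came from separate animals or cultures, so the p-values measure the spread between these libraries, which may be technical.

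NRF2 is normally held by the adaptor KEAP1, which marks it for degradation; oxidants and electrophiles modify cysteines of KEAP1 and let NRF2 accumulate. In the nucleus NRF2 pairs with small MAF proteins and binds antioxidant response elements, where the heme-sensing repressor BACH1 competes with it. Its targets import cystine and make glutathione, reduce peroxides through glutathione and thioredoxin, regenerate NADPH, detoxify quinones and conjugates, and break down heme and store or export the iron. Macrophages depend on the heme and iron part of this programme because they clear red blood cells, and LPS itself is known to engage several of these genes.

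Promoter letters are shown for some of the members whose upstream window held a motif of interest. RefSeq start sites on GRCm38.p6 were at hand for 32 of the 40 genes. The antioxidant response element core, searched on both strands as TGACNNNGC, lay within the 250 bases before the start of 9 of these 32 (28.1%), against 11.5% of the 27025 genes with such windows. These 9 were Nfe2l2, Mafg, Gclm, Mgst1, Txnrd1, Prdx1, G6pdx, Ugdh and Blvra. The AP-1 motif TGANTCA was in 4 (12.5%, against 7.82% of genes), namely Srxn1, Prdx1, Osgin1 and Gstp1, and the C/EBP-ATF composite TGATGNAA was in Slc7a11 alone (3.12%, against 3.91% of genes). In Prdx1 the antioxidant response element core and the AP-1 motif overlap. None of these motifs was found in the windows of 19 members, which says only that these letters are not in those windows. The stretches run 5′ to 3′ on the gene's strand, with the motif match in capitals; a match on the other strand appears as its reverse complement. The first is the whole Slc7a11 window (chr3:50443614-50443863, minus strand), with 2 composite matches at bases 66 to 59 and 47 to 40 before the start. The others are 60-base stretches of Gclm (chr3:122245397-122245456, plus strand), Mgst1 (chr6:138140447-138140506, plus strand), Prdx1 (chr4:116685439-116685498, plus strand) and Txnrd1 (chr10:82859086-82859145, plus strand) around an antioxidant response element core, and of Osgin1 (chr8:119437027-119437086, plus strand) around an AP-1 motif.
Slc7a11: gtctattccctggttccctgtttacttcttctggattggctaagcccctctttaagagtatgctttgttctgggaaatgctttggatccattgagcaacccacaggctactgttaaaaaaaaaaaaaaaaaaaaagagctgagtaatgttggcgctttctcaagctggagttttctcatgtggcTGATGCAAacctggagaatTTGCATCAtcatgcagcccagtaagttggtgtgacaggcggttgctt
Gclm: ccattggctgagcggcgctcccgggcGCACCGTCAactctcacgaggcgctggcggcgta
Mgst1: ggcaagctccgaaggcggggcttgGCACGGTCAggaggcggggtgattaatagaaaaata
Prdx1: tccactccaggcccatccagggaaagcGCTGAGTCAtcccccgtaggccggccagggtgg
Txnrd1: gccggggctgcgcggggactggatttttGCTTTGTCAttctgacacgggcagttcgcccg
Osgin1: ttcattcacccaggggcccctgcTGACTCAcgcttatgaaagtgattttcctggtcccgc

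Each value below is a normalized read count, the number of reads assigned to the gene divided by a size factor of its library. The libraries held between 13797079 and 37572822 reads in genes, with DHA 1 the shallowest, and even Nqo1, the least counted member, had at least 12 reads in every library. LPS 3 and cpdA 3 stood apart from the other libraries of their groups. Of the macrophage markers, 11 of 12 listed genes were in the table. Lyz2, lysozyme, was at 210386 in LPS 3 and 269049 in cpdA 3 against 447053 to 459826 in the other 7 libraries, and since Lyz2 dominated the list's sum, that sum was 435176 and 512855 in these against 661326 to 692760. The other macrophage markers did not go 1 way: the high-affinity Fc receptor gene Fcgr1 was at 10269 in LPS 3 against 4598 and 4159 in LPS 1 and LPS 2, and the list's median difference of LPS 3 from their mean was -0.08 on the log2 scale. Neutrophil markers (6 of 12) summed to 7403 to 8589 in LPS, 5345 to 6645 in DHA and 3600 to 6397 in cpdA libraries, and T and NK cell markers (4 of 9) to 358 to 467, 224 to 265 and 107 to 269. These sums were mostly Csf3r (6942 in LPS 1) and Lck (289 in LPS 1), while the lists' median log2 changes were 0.39 and 0.02 with DHA and -0.21 and -0.11 with cpdA. Mesothelial, fibroblast and endothelial markers (13 of 13) reached 49985 in LPS 3 against 28979 to 37435 elsewhere. Mast cell, basophil and eosinophil markers (6 of 10) summed to 402 in LPS 3 and 444 in cpdA 3 against 227 to 334 elsewhere. Their median log2 differences from the mean of LPS 1 and LPS 2 were 1.08 and 0.91, though Kit was lower, at 19.4 and 32.6. Resident peritoneal macrophage markers (7 of 7) summed to 901.5 and 862 there against 560 to 705. Vsig4 gave 309 and 332 of these sums, and the list's medians were 0.29 and -0.77. Of 11 erythrocyte markers the table held only Alas2, at 0 to 5.8. The nuclear-retained RNAs among 16 listed signs of RNA quality (5 in the table) summed to 53798 in cpdA 3, with Neat1 giving 46514 of that sum. Their sum was 23374 in LPS 3 and 12259 to 21749 elsewhere. The list's median log2 difference from the mean of LPS 1 and LPS 2 was 0.97 in cpdA 3 and 0.71 in LPS 3. No marker gene passed the test in any comparison of all 9 libraries. Of the 13895 genes tested, only 1 passed with DHA, 1 with cpdA and 0 between them, so this does not show that the markers were alike. The part of these differences in the members' values was not tested, and in bulk samples fewer cells of a type cannot be told apart from less RNA per cell.

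The members as a group were higher after either pretreatment, but no single member passed the test with all 9 libraries. The test was limma on log2(normalized count + 1), fitted to the 13895 genes with at least 10 normalized counts in 3 or more libraries, which included all 40 members, and adjusted over those genes by Benjamini-Hochberg. With DHA the log2 change was positive for 37 members and negative for 3, with a median of 0.34 and a range from -0.46 to 1.70, beside a median of -0.001 over all genes tested. With cpdA 37 were again positive and 3 negative, with a median of 0.42 and a range from -0.44 to 1.57, beside -0.004 over all genes. In limma 0 of the 40 members were called with DHA (smallest adjusted p = 0.242) and 0 with cpdA (smallest adjusted p = 0.224), where 0.00720% of all genes were called with DHA and 0.00720% with cpdA. At an unadjusted p under 0.05 there were 13 members with DHA, where 14.2% of all genes were, and 19 with cpdA, where 14.6% were. The quasi-likelihood test of edgeR called 0 in both. DESeq2 called Mgst1 with DHA, where it called 2.27% of all genes, and Mgst1, Cat, Abcc1 and Slc48a1 with cpdA, where it called 2.81%. Both comparisons use the same 3 LPS libraries, so the 2 sets of changes are not independent of each other.

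**Figure D1:**
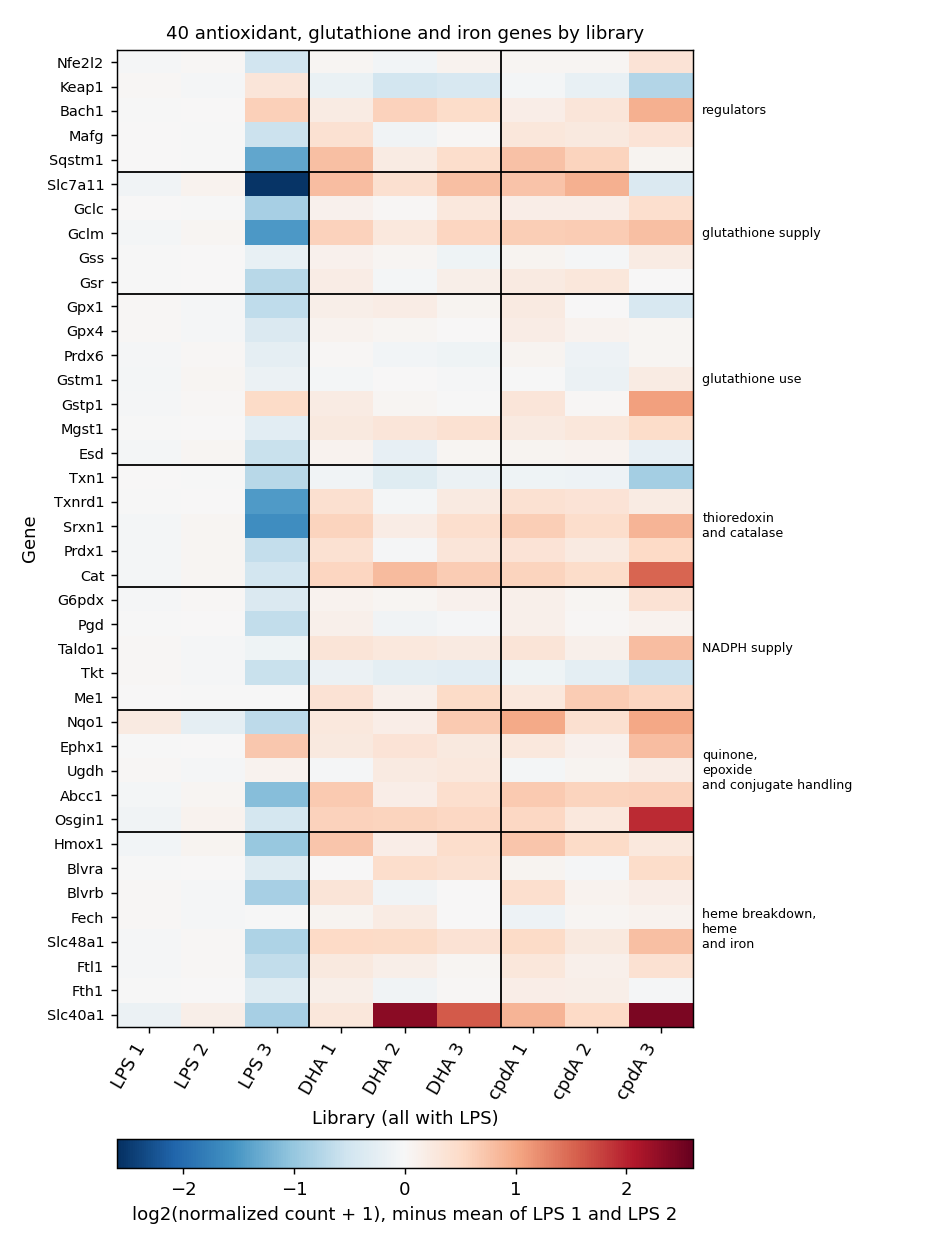
Colour gives the log2 difference of each of the 40 members (rows, ordered by role) from the mean of LPS 1 and LPS 2 in each of the 9 libraries (columns). LPS 3 stands apart as a column of lower values, with 35 of 40 members under that mean.

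Without any model, all 3 DHA libraries lay above all 3 LPS libraries for 17 members, where 13.0% of all genes did so, and below them for 1 member, Keap1, where 15.0% of all genes did. All 3 cpdA libraries lay above all 3 LPS libraries for 23 members, against 10.7% of all genes, and below them again for Keap1 alone, against 12.2%. LPS 3 was low for most members. It held the lowest of the 9 values for 33 of the 40 members, against 20.6% of all genes, and the median member was 0.57 lower there than the mean of LPS 1 and LPS 2 on the log2 scale. The median members of the DHA libraries lay 0.23, 0.14 and 0.23 above that mean, and those of the cpdA libraries 0.25, 0.14 and 0.35 above it, while the medians of all genes stayed between -0.015 and 0.015. At the other end cpdA 3 held the highest value for 20 members, against 22.7% of all genes. All 6 treated libraries thus had a median member above LPS 1 and LPS 2, and the distance to LPS 3 was larger.

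**Figure D2:**
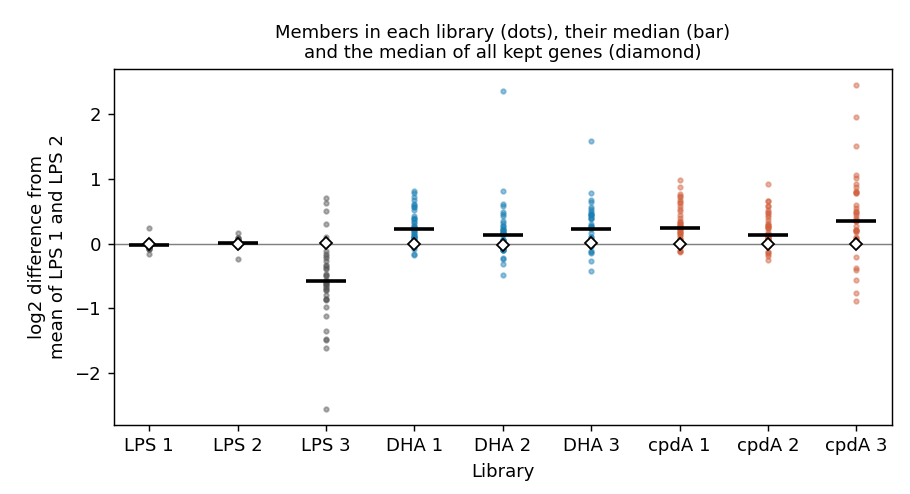
Dots are the 40 members in each library, as log2 difference from the mean of LPS 1 and LPS 2; bars are the members' medians and diamonds the medians of all genes tested. The bar of LPS 3 lies at -0.57 and those of the 6 treated libraries between 0.14 and 0.35, with the diamonds near 0.

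Leaving out both LPS 3 and cpdA 3 left 2 LPS, 3 DHA and 2 cpdA libraries. The members' median change was then 0.15 with DHA and 0.23 with cpdA, with 34 of 40 positive in each, and some members passed the test. With DHA, 7 members rose and 0 fell: Bach1, Slc7a11, Gclm, Mgst1, Cat, Osgin1 and Slc48a1, where 2.75% of all genes were called higher and 4.04% lower. With cpdA, 4 members rose and 0 fell: Slc7a11, Gclm, Cat and Abcc1, where 0.712% of all genes were called higher and 0.885% lower. The treated libraries then lay above both LPS libraries for 19 members with DHA (19.1% of all genes) and 29 with cpdA (24.5% of all genes). They lay below both for 3 members in each comparison, Keap1, Txn1 and Tkt. Of all 13895 genes, 2994 lay below with DHA and 3472 with cpdA. Leaving out LPS 3 alone gave medians of 0.15 and 0.29 and called no member in either comparison. Of all genes it called 0.0144% with DHA and 0.0072% with cpdA. Leaving out cpdA 3 alone called Cat with DHA, where 2.68% of all genes were called. The choice to leave out these libraries was made with earlier results of these data known, so the errors and adjusted p of this fit can be too small. In what follows a member "rose" if it passed the test in the 7 libraries, and values not marked otherwise refer to all 9.

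Among the regulators, the mRNA of Nfe2l2 (gene ID 18024) itself differed little between groups. Its normalized counts were 11051, 11605 and 7972 in LPS 1 to 3, 11726, 10800 and 12119 in DHA 1 to 3, and 11752, 11677 and 14441 in cpdA 1 to 3. The DHA libraries overlapped the LPS libraries, and the cpdA libraries lay just above them. The log2 change was 0.19 (SE 0.165, adjusted p = 0.606) with DHA and 0.32 (SE 0.165, adjusted p = 0.403) with cpdA, and without LPS 3 and cpdA 3 it was 0.03 and 0.05.

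Keap1 (gene ID 50868), the inhibitor, was the 1 member whose treated libraries all lay below the LPS libraries. LPS gave 3563, 3383 and 4298, DHA 3085, 2485 and 2590, and cpdA 3364, 3038 and 2042. The gap between LPS 2 and cpdA 1 was small, and LPS 3 was the highest and cpdA 3 the lowest of all 9. Its log2 change was -0.46 with DHA (SE 0.188, adjusted p = 0.327) and -0.44 with cpdA (SE 0.188, adjusted p = 0.334); in the 7 libraries these were -0.36 (adjusted p = 0.0566) and -0.12 (adjusted p = 0.776).

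Sqstm1 (gene ID 18412) encodes the autophagy receptor p62, which binds KEAP1 and is itself an NRF2 target. It was counted at 29139, 28978 and 11441 in LPS, 49809, 33812 and 39811 in DHA, and 49495, 43435 and 30565 in cpdA libraries. Every treated library exceeded every LPS library, and LPS 3 was far below the other LPS libraries. On the log2 scale the change was 0.93 with DHA (SE 0.364, adjusted p = 0.312) and 0.92 with cpdA (SE 0.364, adjusted p = 0.299), and in the 7 libraries 0.48 (adjusted p = 0.0678) and 0.67 (adjusted p = 0.0683).

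Bach1 (gene ID 12013), the repressor, was counted at 1816, 1859 and 2833 in LPS, 2133, 2801 and 2543 in DHA, and 2066, 2301 and 3498 in cpdA libraries. Here LPS 3 was high, not low, so that the groups overlapped and the log2 changes were 0.22 (adjusted p = 0.682) and 0.27 (adjusted p = 0.627). Bach1 rose with DHA in the 7 libraries, by 0.43 (SE 0.109, adjusted p = 0.0381). Mafg, a small MAF partner of NRF2, had log2 changes of 0.29 with DHA and 0.48 with cpdA (adjusted p = 0.450 and 0.265), and 0.11 and 0.27 in the 7 libraries.

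The 5 genes that supply glutathione were all positive in both comparisons, with medians of 0.43 with DHA and 0.55 with cpdA (0.14 and 0.26 in the 7 libraries), and Slc7a11 and Gclm had the largest values. Slc7a11 (gene ID 26570) encodes the cystine importer subunit xCT and was among the most variable members, with its highest value 11.1 times its lowest. Its normalized counts were 10626, 11979 and 1929 in LPS, 19806, 15139 and 19330 in DHA, and 18858, 21414 and 8714 in cpdA libraries. All DHA libraries exceeded all LPS libraries, whereas cpdA 3 lay among them, and the mean of LPS 1 and LPS 2 was 5.86 times LPS 3. The log2 change was 1.52 with DHA (SE 0.641, adjusted p = 0.339) and 1.28 with cpdA (SE 0.641, adjusted p = 0.389). In the 7 libraries Slc7a11 rose by less but with a smaller error, by 0.67 with DHA (SE 0.127, adjusted p = 0.0110) and 0.83 with cpdA (SE 0.139, adjusted p = 0.0126).

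Gclm (gene ID 14630) and Gclc (14629) are the modifier and catalytic subunits of glutamate-cysteine ligase, the rate-limiting enzyme of glutathione synthesis. Gclm was counted at 1829, 1979 and 676 in LPS, 2889, 2309 and 2815 in DHA, and 2949, 3006 and 3271 in cpdA libraries. Every treated library lay above every LPS library, and the means were 1495 ± 713, 2671 ± 315 and 3075 ± 172 (SD, n = 3 each). Its log2 change was 0.98 with DHA (SE 0.347, adjusted p = 0.293) and 1.19 with cpdA (SE 0.347, adjusted p = 0.230), and in the 7 libraries Gclm rose by 0.48 (SE 0.101, adjusted p = 0.0171) and 0.65 (SE 0.111, adjusted p = 0.0138). Gclc was counted at 1010, 1000 and 554 in LPS, 1090, 1030 and 1220 in DHA, and 1139, 1138 and 1359 in cpdA libraries. Its groups did not overlap either, but LPS 1, LPS 2 and DHA 2 were close, and the log2 changes of 0.43 and 0.55 (adjusted p = 0.395 and 0.294) shrank to 0.14 and 0.18 in the 7 libraries. Gss, glutathione synthetase, and Gsr, which reduces oxidized glutathione, had log2 changes of 0.08 and 0.34 with DHA and 0.14 and 0.41 with cpdA, and overlapped between groups.

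The 7 genes that use glutathione or act beside it differed least with all 9 libraries, with medians of 0.17 with DHA and 0.18 with cpdA. In the 7 libraries these were 0.05 and 0.12, and the cpdA median of the NADPH-supplying genes was smaller, at 0.09. Mgst1 (gene ID 56615), a membrane-bound glutathione transferase, had small spreads within each group. It was counted at 3464, 3502 and 2895 in LPS, 4124, 4341 and 4576 in DHA, and 4069, 4274 and 4822 in cpdA libraries, so the groups were separate and LPS 3 was only a little low. On the log2 scale the change was 0.41 with DHA (SE 0.113, adjusted p = 0.242) and 0.42 with cpdA (SE 0.113, adjusted p = 0.224), and Mgst1 rose with DHA in the 7 libraries by 0.32 (SE 0.080, adjusted p = 0.0383), beside 0.26 with cpdA (adjusted p = 0.243). Gpx1, a cytosolic glutathione peroxidase, was counted at 7448, 7110 and 4593 in LPS, 8132, 8365 and 7666 in DHA, and 8541, 7366 and 5462 in cpdA libraries; only the DHA libraries were all above LPS, with log2 changes of 0.37 and 0.17 (0.15 and 0.12 in the 7 libraries). Gpx4, which removes lipid peroxides, was counted at 5419, 5182 and 4060, 5662, 5510 and 5314, and 6055, 5650 and 5506 in the same order, with log2 changes of 0.18 and 0.24 (0.05 and 0.14 in the 7 libraries). Prdx6, Gstm1, Gstp1 and Esd, a peroxiredoxin, a pair of cytosolic glutathione transferases and S-formylglutathione hydrolase, overlapped between groups, with log2 changes from -0.08 to 0.17 with DHA and from 0.07 to 0.30 with cpdA. Gstp1 has a near-identical neighbour, Gstp2, and the glutathione transferases of the Gstm family are close copies, so their counts are uncertain.

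Of the thioredoxin system and catalase, all 5 genes were positive with DHA and 4 with cpdA, with medians of 0.69 and 0.81. In the 7 libraries 4 of 5 were positive in each, with medians of 0.22 and 0.38. Srxn1 (gene ID 76650), sulfiredoxin, which repairs over-oxidized peroxiredoxins, was counted at 7945, 8638 and 2699 in LPS, 12303, 9493 and 11221 in DHA, and 12924, 11308 and 15257 in cpdA libraries. The groups did not overlap, and LPS 3 was again far below the other LPS libraries. The log2 change was 0.94 with DHA (SE 0.388, adjusted p = 0.330) and 1.20 with cpdA (SE 0.388, adjusted p = 0.247), and in the 7 libraries 0.40 (adjusted p = 0.0621) and 0.55 (adjusted p = 0.0678).

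Txnrd1 (gene ID 50493), cytosolic thioredoxin reductase, was counted at 21521, 21969 and 7869 in LPS, 29169, 21112 and 25391 in DHA, and 28768, 27914 and 25054 in cpdA libraries. DHA 2 lay among the LPS libraries and the cpdA libraries lay above them, with log2 changes of 0.69 (adjusted p = 0.405) and 0.81 (adjusted p = 0.338); in the 7 libraries these were 0.20 and 0.38. Prdx1, an abundant peroxiredoxin, was counted at 70490, 75324 and 47106, then 95340, 71195 and 90219, then 92650, 85808 and 103886, with the same overlap at DHA 2 and log2 changes of 0.43 and 0.57, or 0.22 and 0.29 in the 7 libraries. Txn1, thioredoxin itself, was not higher: its log2 changes were 0.06 with DHA and -0.14 with cpdA, and without LPS 3 and cpdA 3 every treated library lay below LPS 1 and LPS 2, which were at 25795 and 25590.

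Cat (gene ID 12359) encodes catalase, the peroxisomal enzyme that splits hydrogen peroxide. It was counted at 2075, 2207 and 1535 in LPS, 3170, 3771 and 3359 in DHA, and 3202, 2986 and 6101 in cpdA libraries. The groups were well separated, LPS 3 was only moderately low, and cpdA 3 was far above the rest. The means were 1939 ± 356, 3433 ± 307 and 4096 ± 1739 (SD, n = 3 each). Its log2 change was 0.84 with DHA (SE 0.259, adjusted p = 0.263) and 1.02 with cpdA (SE 0.259, adjusted p = 0.224). In the 7 libraries Cat rose by 0.68 with DHA (SE 0.091, adjusted p = 0.00182), the smallest adjusted p of the 40 members there, and by 0.53 with cpdA (adjusted p = 0.0212).

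**Figure D3:**
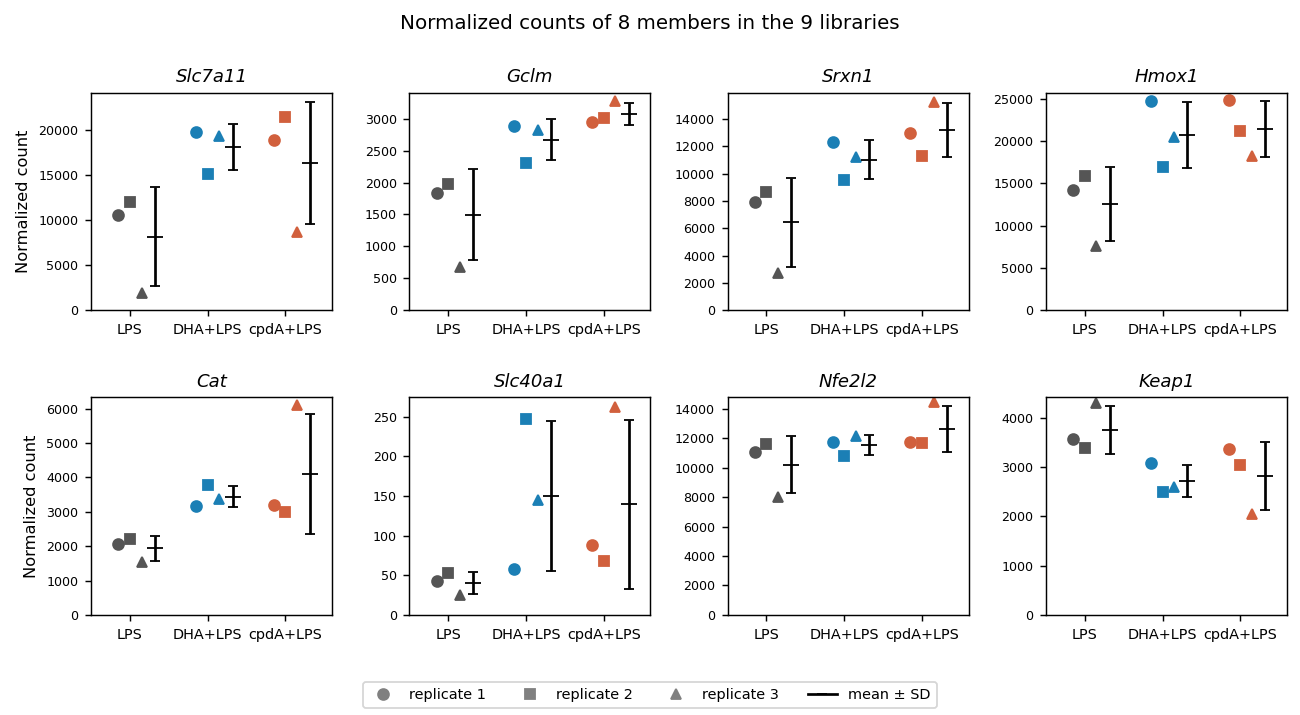
Normalized read counts of 8 members in the 9 libraries, with 1 symbol per library and bars at the group means ± SD (n = 3); each vertical axis starts at 0. Slc7a11 and Gclm show the low LPS 3 value (1929 and 676), Cat the high cpdA 3 value (6101), and Keap1 the treated libraries below LPS.

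The NADPH-supplying genes were modestly positive, with medians of 0.21 with DHA and 0.31 with cpdA (0.08 and 0.09 in the 7 libraries). G6pdx, glucose-6-phosphate dehydrogenase, was counted at 4101, 4241 and 3215 in LPS, 4454, 4317 and 4477 in DHA, and 4544, 4330 and 5400 in cpdA libraries. All treated libraries lay above the LPS libraries, by a narrow margin, with log2 changes of 0.21 (adjusted p = 0.489) and 0.31 (adjusted p = 0.332), or 0.08 and 0.09 in the 7 libraries. Me1, cytosolic malic enzyme, was counted at 144, 143 and 141 in LPS, 187, 157 and 203 in DHA, and 173, 226 and 211 in cpdA libraries. LPS 3 was level with the other LPS libraries here and every treated library was higher, with log2 changes of 0.34 (SE 0.149, adjusted p = 0.347) and 0.50 (SE 0.149, adjusted p = 0.231). Taldo1, transaldolase, was likewise higher in every treated library, with changes of 0.32 and 0.46 (0.28 and 0.23 in the 7 libraries). Pgd had changes of 0.21 and 0.29, and Tkt, transketolase, of -0.03 and -0.12, with its highest value in LPS 1. In the 7 libraries the changes of Tkt were -0.225 and -0.187, with every treated library below both LPS libraries.

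The 5 genes handling quinones, epoxides and conjugates were all positive, with medians of 0.60 with DHA and 0.99 with cpdA (0.37 and 0.40 in the 7 libraries). Abcc1 (gene ID 17250), the exporter MRP1 of glutathione conjugates, was counted at 5253, 5565 and 2504 in LPS, 8627, 6073 and 7353 in DHA, and 8662, 8094 and 8151 in cpdA libraries. All treated libraries exceeded all LPS libraries, and the cpdA libraries were close to each other. On the log2 scale the change was 0.80 with DHA (SE 0.279, adjusted p = 0.293) and 0.99 with cpdA (SE 0.279, adjusted p = 0.225), and in the 7 libraries Abcc1 rose with cpdA by 0.63 (SE 0.139, adjusted p = 0.0484), beside 0.43 with DHA (adjusted p = 0.0645).

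Osgin1 (gene ID 71839), an oxidative-stress-induced growth inhibitor, was counted at 92.4, 103.7 and 70.6 in LPS, 149.4, 146.6 and 142.4 in DHA, and 142.8, 118.1 and 381.2 in cpdA libraries. The DHA libraries were nearly equal, and cpdA 3 was far above the others. The log2 change was 0.73 with DHA (SE 0.381, adjusted p = 0.410) and 1.07 with cpdA (SE 0.381, adjusted p = 0.265), and Osgin1 rose with DHA in the 7 libraries by 0.57 (SE 0.152, adjusted p = 0.0463), beside 0.40 with cpdA (adjusted p = 0.365). Nqo1, a quinone reductase often used as a readout of NRF2, was scarce in these cells: 26.1, 18.4 and 13.3 in LPS, 26.8, 24.8 and 35.6 in DHA, and 44.4, 29.5 and 45.3 in cpdA libraries. The cpdA libraries lay above the LPS libraries and the DHA libraries overlapped them, with log2 changes of 1.03 (adjusted p = 0.231) and 0.60 (adjusted p = 0.404), or 0.70 and 0.37 in the 7 libraries. Ephx1, microsomal epoxide hydrolase, and Ugdh, which makes the donor for glucuronidation, had changes of 0.05 and 0.13 with DHA and 0.16 and 0.04 with cpdA.

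The 8 heme and iron genes were all positive in both comparisons, with medians of 0.38 with DHA and 0.51 with cpdA (0.22 and 0.24 in the 7 libraries). Hmox1 (gene ID 15368), heme oxygenase 1, which opens the heme ring and frees its iron, was counted at 14225, 15900 and 7617 in LPS, 24684, 16911 and 20508 in DHA, and 24821, 21148 and 18229 in cpdA libraries. Every treated library lay above every LPS library, with DHA 2 closest. Its log2 change was 0.77 with DHA (SE 0.277, adjusted p = 0.294) and 0.82 with cpdA (SE 0.277, adjusted p = 0.252), and in the 7 libraries 0.44 (adjusted p = 0.0920) and 0.61 (adjusted p = 0.105).

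Slc48a1 (gene ID 67739), or HRG1, carries heme out of the phagolysosome. It was counted at 3760, 3969 and 2229 in LPS, 5524, 5443 and 5006 in DHA, and 5453, 4627 and 6649 in cpdA libraries. The groups were separate, with log2 changes of 0.73 (SE 0.219, adjusted p = 0.261) and 0.78 (SE 0.219, adjusted p = 0.224), and Slc48a1 rose with DHA in the 7 libraries by 0.46 (SE 0.094, adjusted p = 0.0150), beside 0.38 with cpdA (adjusted p = 0.114). Blvra and Blvrb, the biliverdin reductases, had changes of 0.40 and 0.37 with DHA and 0.29 and 0.52 with cpdA; in the 7 libraries these were 0.28 and 0.08, then 0.02 and 0.27. Blvrb was counted at 3629, 3447 and 1948 in LPS, 4450, 3298 and 3556 in DHA, and 4790, 3782 and 3995 in cpdA libraries. Only its cpdA libraries lay above all LPS libraries. Fech, ferrochelatase, which puts iron into heme, stayed at 692 to 874 in all 9 libraries.

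The ferritin subunits, which store iron, were the most abundant members. Per kilobase of annotated exon the mean LPS level was 344136 normalized counts for the heavy chain Fth1 and 149180 for the light chain Ftl1, followed by Prdx1 at 25278 and Txn1 at 21263. Ftl1 was counted at 161469, 166724 and 105026 in LPS, 195065, 181636 and 170677 in DHA, and 201589, 179813 and 216834 in cpdA libraries. Its treated libraries all lay above LPS, with DHA 3 close to LPS 2 and log2 changes of 0.37 (adjusted p = 0.467) and 0.49 (adjusted p = 0.347), or 0.15 and 0.21 in the 7 libraries. Fth1 was counted at 570101, 584065 and 454328, then 644343, 539359 and 590933, then 648505, 640033 and 564810, and the groups overlapped. Both genes have many processed copies in the genome, so that their counts depend on how such reads were assigned.

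Slc40a1 (gene ID 53945), ferroportin, the iron exporter, had the largest change in both comparisons and the lowest level per kilobase, at 12.0 in LPS libraries. It was counted at 42.4, 53.0 and 25.6 in LPS, 58.0, 246.9 and 144.7 in DHA, and 87.8, 68.1 and 262.6 in cpdA libraries. Every treated library lay above every LPS library, but the treated libraries differed from each other several-fold, and DHA 1 was near LPS 2. The means were 40.3 ± 13.8, 150 ± 94.6 and 139.5 ± 107 (SD, n = 3 each). On the log2 scale the change was 1.70 with DHA (SE 0.614, adjusted p = 0.294) and 1.57 with cpdA (SE 0.614, adjusted p = 0.298), and in the 7 libraries 1.41 (adjusted p = 0.201) and 0.69 (adjusted p = 0.775).

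**Figure D4:**
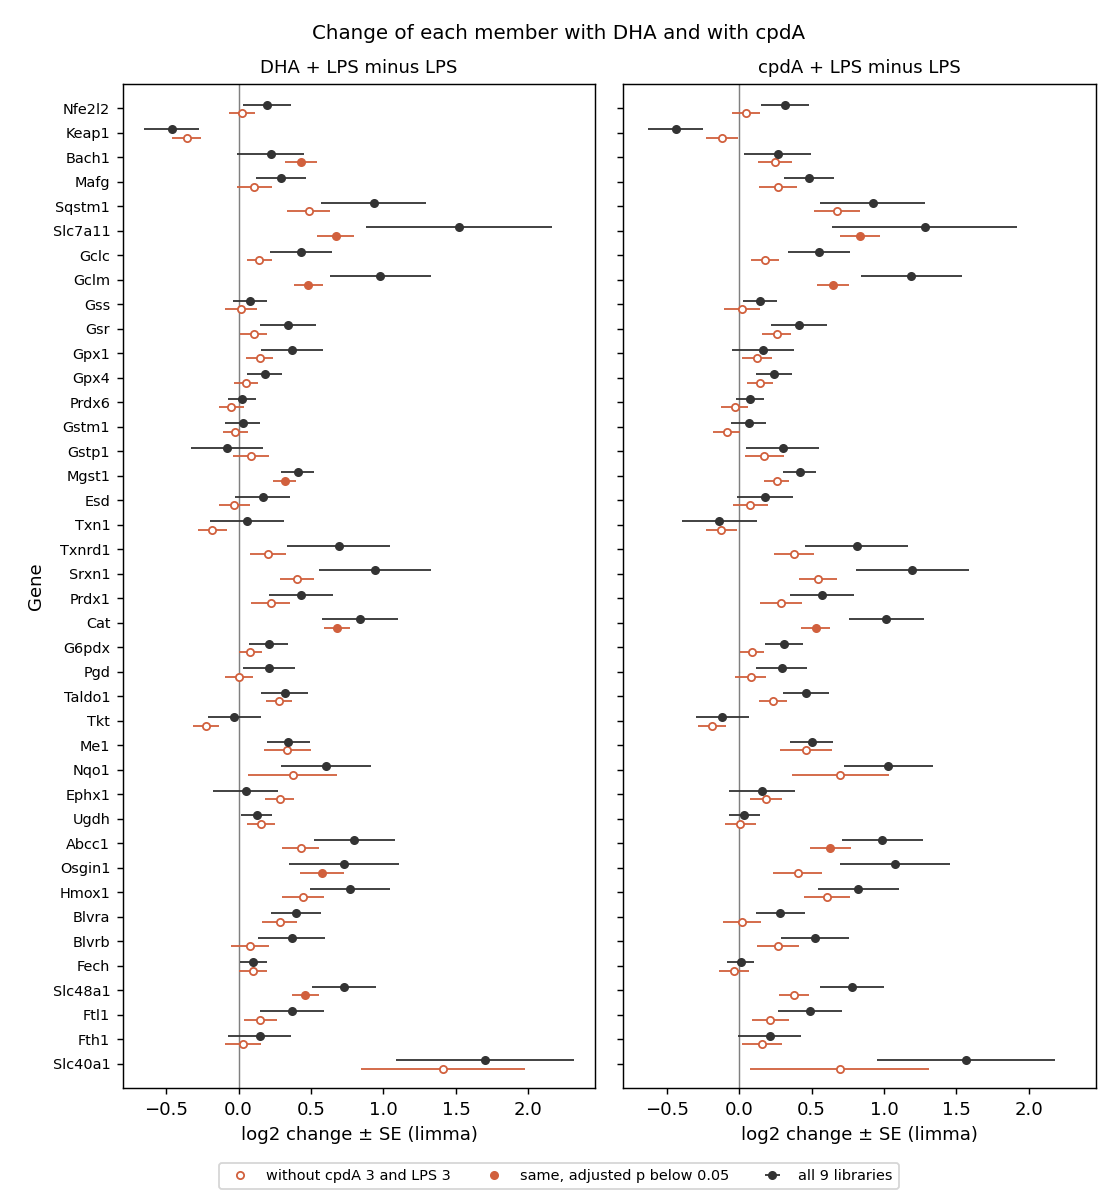
Log2 change of each of the 40 members against LPS with DHA (left) and cpdA (right), with bars of ± SE. Black points use all 9 libraries, and none passed the limma test; orange points leave out LPS 3 and cpdA 3 and are filled where the test was passed, for 7 members with DHA and 4 with cpdA.

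The spread between libraries differed widely among the members. The highest of the 9 values was 10.3 times the lowest for Slc40a1, 5.65 times for Srxn1, 5.40 times for Osgin1 and 4.84 times for Gclm, but 1.22 times for Prdx6, 1.25 times for Ugdh and 1.26 times for Fech. Nfe2l2 itself varied 1.81-fold. The ratio of LPS 1 to LPS 2 lay between 0.800 for Slc40a1 and 1.42 for Nqo1, and was 0.952 for Nfe2l2 and 0.887 for Slc7a11.

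No member passed the test between cpdA and DHA. The doses differ (100 µM and 10 µM), so the values are set side by side and no potency is compared. The cpdA minus DHA difference was positive for 31 members and negative for 9, where 45.4% of all genes were positive. Its median was 0.07 and it ranged from -0.24 for Slc7a11 to 0.43 for Nqo1. In limma 0 of the 40 members and 0% of all genes were called, the smallest adjusted p of a member was 1, and 0 members had an unadjusted p under 0.05; edgeR and DESeq2 also called 0. The 95% interval of the difference included 0 for all 40, but it was wide, with a median half-width of 0.49 on the log2 scale. For Cat it ran from -0.41 to 0.77, for Gclm from -0.58 to 1.00, for Hmox1 from -0.57 to 0.68 and for Slc7a11 from -1.69 to 1.21, so that sizeable differences between the treatments were not detectable with these libraries. For Mgst1 it was narrower, from -0.24 to 0.27. In the 7 libraries the difference was positive for 27 members and negative for 13, where 54.3% of all genes were positive. Its median there was 0.06, with a range from -0.72 for Slc40a1 to 0.32 for Nqo1. Slc7a11 had the other sign there, at 0.16, and 0 members were called.

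A list of 112 other genes of glutathione, thioredoxin, NADPH, detoxification, regulator, heme and iron functions had 110 in the table and 107 in the test. Their median log2 change was 0.12 with DHA (68 positive) and 0.09 with cpdA (70 positive), beside 0.34 and 0.42 for the members. In limma 0 were called in any comparison with all 9 libraries, with 27 of 107 at an unadjusted p under 0.05 with DHA (14.2% of all genes) and 26 with cpdA (14.6%). Those with the smallest p were Cp, Aifm2 and Akr1b8 with DHA and Akr1b8, Cbr3 and Cp with cpdA. Akr1b8, an aldo-keto reductase, was counted at 312, 319 and 272 in LPS, 551, 495 and 598 in DHA, and 593, 483 and 877 in cpdA libraries, with log2 changes of 0.86 (adjusted p = 0.201) and 1.07 (adjusted p = 0.147). Cbr3, a carbonyl reductase, was counted at 85.9, 91.0 and 61.4, then 147.1, 156.7 and 172.5, then 149.2, 160.7 and 277.1, with a change of 1.25 with cpdA (SE 0.251, adjusted p = 0.171). In both genes every treated library was above every LPS library and cpdA 3 was the highest of all.

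Cp, ceruloplasmin, a ferroxidase that works with ferroportin, was lower in the treated libraries. It was counted at 3329, 3462 and 4098 in LPS, 1750, 1642 and 1979 in DHA, and 1786, 2375 and 1155 in cpdA libraries. All treated libraries lay below all LPS libraries, with log2 changes of -1.02 with DHA (SE 0.227, adjusted p = 0.201) and -1.09 with cpdA (adjusted p = 0.179). Aifm2, or FSP1, which protects lipids from peroxidation, was counted at 1179 to 1281 in LPS, 838 to 965 in DHA and 914 to 1068 in cpdA libraries. Its change was -0.42 with DHA (SE 0.094, adjusted p = 0.201) and -0.33 with cpdA (SE 0.094, adjusted p = 0.230). Between cpdA and DHA the smallest p belonged to Gstk1, Abcc5 and Ces2g, with differences of -0.35, 0.42 and 0.41 and adjusted p of 1.

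In the 7 libraries, 11 of these 107 other genes rose with DHA, where 2.75% of all genes did, and 5 fell, where 4.04% did. The 6 in detoxification that rose were Akr1b8 (0.79), Cbr3 (0.83), Ptgr1 (0.39), Aldh9a1 (0.67), Abhd4 (0.53) and Trim16 (1.39). Others that rose were the heme synthesis enzyme Cpox, by 0.36, the transporter Abcb6 by 0.56, and the mitochondrial NADPH source Idh2 by 0.67. Cd163, the hemoglobin scavenger receptor, was also called, but from normalized counts of 2.2 and 0 in LPS 1 and LPS 2 against 8.9, 16.9 and 13.4 in DHA libraries, too few for a fold to be given. Ggct, Prdx5, Aifm2, Cp and the iron hormone hepcidin (Hamp) fell, with changes of -0.56, -0.55, -0.38, -0.93 and -1.18. With cpdA, Cbr3 and Akr1b8 rose by 0.80 and 0.76 and Cp had a change of -0.72, and no other gene of the list was called (0.712% of all genes were called higher and 0.885% lower).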

How the data were processed

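The deposited table holds 1 value per gene and library, a normalized signal: gene read counts that the authors divided by 1 size factor per library and rounded to 1 decimal. The submitters' processing notes name CASAVA 1.8.2, Bowtie2, DESeq and the mouse build mm9; for the counting program, the annotation and strandedness the sources used here give nothing, so overlapping and antisense genes cannot be told apart. Whole reads were recovered from the steps between values, with 99.71% to 99.99% of values within 0.05 of a whole read, at 13797079 to 37572822 reads per library; the depth of scarce members limits their precision. Groups came from the labels.

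Values were tested as log2(value + 1) with limma 3.58.1 in R 4.3.3 (trend and robust variance, statmod 1.5.0), all 9 libraries in 1 fit, for the 13895 genes with at least 10 in 3 or more libraries, with a two-sided test, Benjamini-Hochberg adjustment over those genes and a threshold of 0.05. Changes on this scale are understated for scarce genes. The recovered reads were tested with edgeR 4.0.16 and DESeq2 1.42.0 as alternatives. All were run on simulated data, in which no library stood apart as LPS 3 and cpdA 3 do here. The simulation therefore does not show how the tests behave with such libraries. Other alternatives were the pseudocount, the filter, the scaling, the variance options, library weights, a replicate block and leaving out libraries. Same-numbered LPS and cpdA libraries deviated together (correlations 0.387, 0.234 and 0.437), which meets the rule used here (all over 0.1). Differently numbered pairs did so too, at 0.292 for cpdA 1 with LPS 2 and 0.264 for cpdA 2 with LPS 1. Pairs of a library 3 with a library 1 or 2 were negative (-0.432 to -0.306). These values therefore do not single out pairing by number. The DHA libraries did not meet the rule (0.140, -0.065 and 0.020 with LPS). The labels do not say what a number marks.

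The members and lists, and the choice to leave out LPS 3 and cpdA 3 together, were made with earlier results of these data known. Values in every library are given for a fixed set of regulators and enzymes, for members past the test in either fit, and for members whose groups did not overlap with a change of at least 0.5; of the other list, the 3 smallest p per comparison are named, with those past the test in the 7 libraries, of which 1 is not reported here. Motifs and sequences are from RefSeq promoters on GRCm38.p6, exon lengths from GENCODE on GRCm38; no coordinate of mm9 is printed.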

Additional observations from a re-analysis of the deposited data

How the results depend on the processing

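With all 9 libraries the number of members called was 0 in each comparison, and 0 under every alternative run other than those named here. With DHA it was 20 with library weights (18 higher and 2 lower, among 4303 of 13895 genes called). It was 1 with DESeq2 and 7 without both LPS 3 and cpdA 3. Leaving out 1 library at a time gave 0 to 1 with DHA, the 1 being Cat among 373 genes called. With cpdA it was 7 with library weights (among 563 genes), 4 with DESeq2 and 4 without both libraries. Leaving out 1 library at a time gave 0 with cpdA. The library weights were 6.517 for DHA 3 against 0.514 and 0.723 for DHA 1 and DHA 2. The weighted DHA mean thus rests mostly on 1 library. LPS 3 and cpdA 3 had weights of only 0.223 and 0.130. The replicate block called 0 members in all 3 comparisons, with medians of 0.34, 0.42 and 0.07, and changed no call. The members' median changes moved by less than 0.203 under every alternative run, the SD of the members' median between libraries of a group. That SD includes LPS 3, whose median of -0.573 stood apart, so it is a wide yardstick. Without both libraries the median change fell from 0.343 to 0.154 with DHA and from 0.416 to 0.225 with cpdA. The cpdA minus DHA difference of Akr1b8 was 0.21; it was -0.073 with library weights and -0.030 without both libraries, and -0.030 to 0.399 when 1 library was left out. Of 2043 alternative values of named genes, 55 had another sign, 50 of them between cpdA and DHA, and 66 passed the test. Why the calls depend on these settings was not tested. With 3 libraries a group, small differences were not detectable.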
